A study of Mus musculus with 9 samples.

Results

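The proteasome genes read here are the 48 mouse genes whose array name is Psm, a letter from a to g and a number, out of 36413 gene names on the array, each represented by the brightest of its probes. They comprise 8 Psma, 11 Psmb, 6 Psmc, 14 Psmd, 4 Psme, 1 Psmf and 4 Psmg genes. Their transcripts were measured in extracellular vesicles (EVs), membrane particles shed by cells with RNA enclosed, from mouse embryonic fibroblasts (MEFs), which are connective tissue cells of the embryo. The 5 arrays of the first group held EV RNA of PBS-treated MEFs (PBS is phosphate-buffered saline), and the 4 arrays of the second held EV RNA of control MEFs. Strain, age and genotype of the MEFs are not given in the sources used here, and neither is whether the saline group also received the electric pulses of the transfection method. No source states that replicates were separate cultures, so p-values cover the spread between these arrays, which may be technical. Both groups lay on both slides, 3 PBS-treated (1 to 3) and 2 control arrays (1, 2) on slide 1 and the other 4 arrays on slide 2.

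The proteasome is the barrel-shaped protease that degrades proteins tagged with ubiquitin in the cytosol and the nucleus. Its core particle is built of outer rings of alpha subunits (Psma), which gate the channel, and inner rings of beta subunits (Psmb), of which only β1, β2 and β5 cut peptide bonds. The regulatory particle caps the core, with a base of ATPases (Psmc) that unfold substrates and with scaffold, receptor and lid subunits (Psmd). PA28 and PA200 (Psme) are alternative caps, PI31 (Psmf1) binds the core, and the Psmg proteins assemble the alpha ring. Interferon induces 3 substitute catalytic subunits, Psmb8, Psmb9 and Psmb10, which form the immunoproteasome and favour peptides that fit MHC class I molecules. Leukocytes hold these subunits at rest, whereas fibroblasts mainly carry the standard ones.

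The stretches of 100 bases before the start of the catalytic genes are shown because inducible and standard subunits differ in how their promoters are controlled. They come from the RefSeq promoter table (GRCm38.p6), which matched 40 of the 48 genes and 5 of the 6 catalytic ones (Psmb7 did not match), and are written along the gene's own strand. Capitals mark the letters of any of 4 searched motifs: TGACNNNGC, the core of the antioxidant response element; GAAANNGAAA, the core of the interferon response element; TTCNNNGAA, the core of the interferon-gamma activated site; and the CCAAT box. Psmb5 (chr14:54617996-54618095, minus strand) and Psmb6 (chr11:70525257-70525356, plus strand) are the standard β5 and β1 genes.
Psmb5: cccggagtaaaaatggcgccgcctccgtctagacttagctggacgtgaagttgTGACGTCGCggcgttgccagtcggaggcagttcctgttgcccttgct
Psmb6: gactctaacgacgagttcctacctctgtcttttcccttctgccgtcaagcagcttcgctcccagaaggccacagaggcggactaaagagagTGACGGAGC
Psmb8 (chr17:34198095-34198194, plus strand), Psmb9 (chr17:34187331-34187430, minus strand) and Psmb10 (chr8:105938393-105938492, minus strand) are the inducible genes.
Psmb8: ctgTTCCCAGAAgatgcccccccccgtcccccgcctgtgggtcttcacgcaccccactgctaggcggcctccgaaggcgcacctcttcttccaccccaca
Psmb9: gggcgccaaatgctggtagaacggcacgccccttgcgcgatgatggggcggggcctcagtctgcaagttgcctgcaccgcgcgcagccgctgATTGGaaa
Psmb10: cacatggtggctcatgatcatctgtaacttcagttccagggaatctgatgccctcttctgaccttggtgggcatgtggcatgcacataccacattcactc
The Psmb8 and Psmb9 stretches lie 10664 bases apart on the same chromosome and face away from each other, in the MHC region. In these stretches Psmb5 and Psmb6 held TGACNNNGC on the gene's strand, starting at position -47 and -9 from the start, Psmb8 held TTCNNNGAA at -97, and Psmb9 held CCAAT on the opposite strand at -8. No motif of the 4 was found in the Psmb10 stretch. Over the whole windows of 250 bases before and 50 after the start, on both strands and with overlaps between motifs allowed, TGACNNNGC was in 6 of the 40 matched members and 12.4% of the 32851 windows in the table. GAAANNGAAA was in 5 members and 3.44% of windows, TTCNNNGAA in 3 members and 8.3% of windows, and CCAAT in 14 members and 37.4% of windows. The PA28 gene Psme1 was among the members with GAAANNGAAA, and Psmb8, Psmb9 and Psmb10 were not.

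Signals are log2 brightness relative to a reference point of the same array, the 75th percentile of the probes that every array detected, where detected means marked by the scanner software as well above background, so 0 is a bright probe and a difference of 1 is a 2-fold change relative to that percentile. Bulk EV RNA cannot tell more vesicles that carry a transcript from more copies in each. Of 55681 probes, PBS-treated arrays had 16492 to 19233 detected and control arrays 12584 to 15554, and the percentile used for scaling averaged 10.48 in PBS-treated and 9.30 in control arrays (log2 brightness). Probes that no array detected differed by a median of -1.34 (PBS-treated minus control) on this scale. Of 10 fibroblast markers on the array, 9 were tested, with 2 higher, 3 lower and 4 not passing, and Thy1 was detected nowhere. Their summed level spanned 4.68 to 4.78 in PBS-treated and 3.70 to 4.40 in control arrays (log2). The median difference of the tested markers was -0.44. Dcn (2.03) and S100a4 (1.45) were the higher ones, and Pdgfra (-1.95), Col1a1 (-1.35) and Fn1 (-1.17) the lower ones. Of 9 leukocyte markers 3 (Cd68, Emr1 and Lyz2) were detected on no array and 4 were tested, of which Itgam and Csf1r were lower in PBS-treated EVs. Their summed level spanned -0.23 to 0.81 in PBS-treated and 1.11 to 1.71 in control arrays (log2). Epcam, Cdh1 and Krt18 of the 4 epithelial markers were likewise undetected and none of the 4 was tested. Of 3 endothelial markers Cdh5 was detected nowhere, and Kdr (-1.43) and Pecam1 (-1.81) were lower in PBS-treated EVs, with a summed level of -3.40 to -2.88 in PBS-treated and -2.08 to -1.32 in control arrays (log2). The part of detection, scaling and these markers in the differences below was not tested.

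Of the 48 genes, 46 were tested and 35 were higher in PBS-treated EVs, none was lower, and 11 did not pass (limma, adjusted p under 0.05). Among all 14284 genes tested, 31.6% were higher and 20.7% lower by the same rule. The median log2 difference was 0.98 over the proteasome genes and -0.02 over all genes. By unadjusted p 1 of them, Psmg2, was lower, and the methods' t-test after Benjamini-Hochberg adjustment called 36 higher and 0 lower. At least 2-fold rises were called in 23 of 46 (50%), against 20.5% of all genes tested, and every PBS-treated array exceeded every control array in 34, against 29.4%. Within slide 1, 33 members were higher (all genes: 30.9%) with a median of 0.79, and within slide 2, 36 were higher (all genes: 33.5%) with a median of 1.06. The filter required signal on at least 4 arrays, and 40 of the 46 were detected on all 9.

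**Figure D1:**
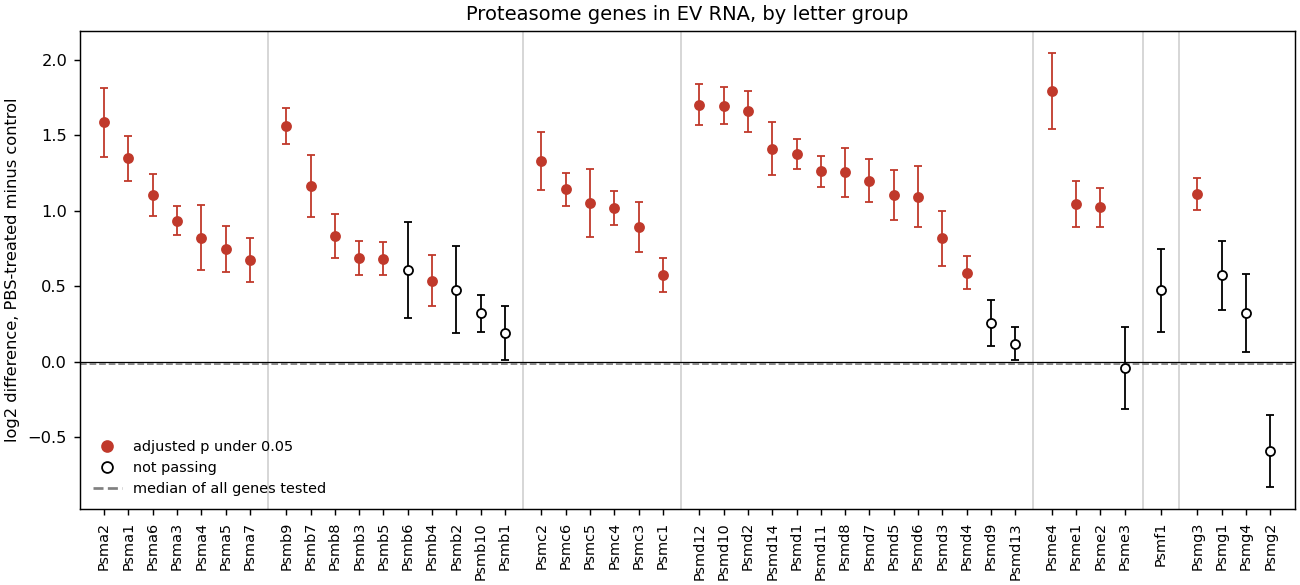
Log2 difference (PBS-treated minus control) of the 46 tested proteasome genes, ordered within their letter groups; bars are ± 1 SE of the limma fit, filled points pass adjusted p under 0.05 and the dashed line is the median of all genes tested. The 35 filled points all lie above 0, and Psme3 and Psmg2 are the open points below it.

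Each PBS-treated array had 46 of the 48 genes detected, and control replicates 1 to 4 had 46, 46, 41 and 43. The difference of 2 genes per array did not pass (exact permutation test, two-sided, p = 0.167). Psma8, the alpha subunit of the testis, and Psmb11, the catalytic subunit of the thymic cortex, were detected on no array and were not tested. The median signal of the tested members was 0.04, 0.07, 0.03, -0.03 and 0.10 in PBS-treated replicates 1 to 5, against -1.01, -0.91, -1.07 and -1.03 in control replicates 1 to 4. The groups did not overlap in this median, and the arrays of a group lay within 0.2 of each other.

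**Figure D2:**
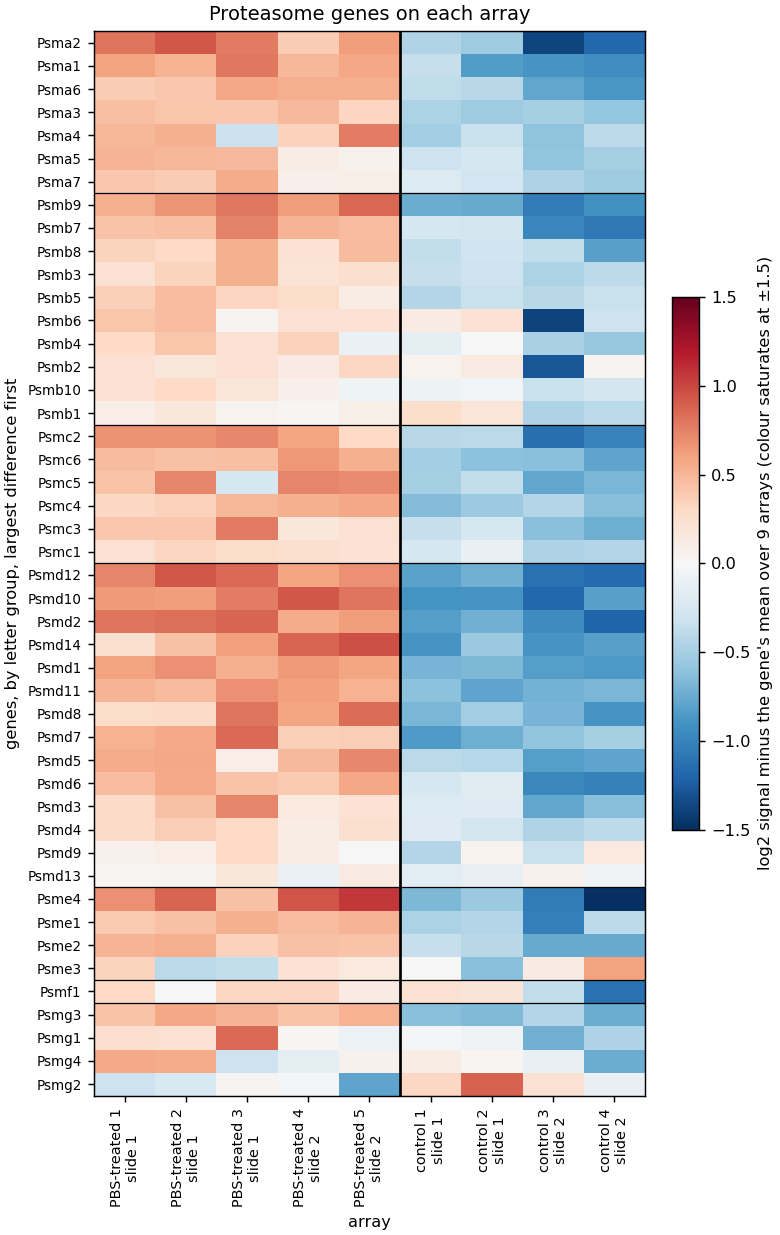
Signal of each tested proteasome gene on each array as its log2 deviation from the gene's mean over the 9 arrays, red above and blue below, with PBS-treated arrays left of the black line and control arrays right of it. Psmb6 and Psmb2 are dark only in control replicate 3, Psma4 and Psmc5 are pale blue in PBS-treated replicate 3, and Psmg2 runs the other way.

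The catalytic subunits come first, the inducible ones leading. Psmb9 (β1i, the counterpart of Psmb6) had signals of -1.42, -1.31, -1.18, -1.34 and -1.11 in PBS-treated EVs, against -2.72, -2.73, -3.02 and -2.88 in control EVs. The groups were separated by more than 1 log2 unit, and the fitted difference was 1.56 ± 0.12 (SE), or 2.96-fold (limma, adjusted p = 1.93e-05). Psmb8 (β5i, the counterpart of Psmb5) had -1.28, -1.31, -1.08, -1.40 and -1.14 in PBS-treated EVs, against -1.98, -1.91, -1.98 and -2.43 in control EVs. It too rose without overlap, by 0.83 ± 0.14 (limma, adjusted p = 0.00133), with control replicate 4 below the other controls. Psmb10 (β2i, the counterpart of Psmb7) had 1.06, 1.14, 1.02, 0.91 and 0.78 in PBS-treated EVs, against 0.76, 0.80, 0.51 and 0.57 in control EVs. Its groups overlapped by little, and the difference of 0.32 ± 0.12 did not pass (limma, adjusted p = 0.056). With slide as a block Psmb10 did pass (adjusted p = 0.0181, with 9.46e-07 to 0.743 over all its alternatives), at a difference of 0.30.

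Among the standard subunits, Psmb5 (β5, chymotrypsin-like) had 3.01, 3.12, 2.98, 2.93 and 2.76 in PBS-treated EVs, against 2.22, 2.32, 2.24 and 2.32 in control EVs. All PBS-treated arrays were higher, by 0.68 ± 0.11 (limma, adjusted p = 0.000862). With the 75th percentile taken over all probes Psmb5 no longer passed (1.09). A dimmer second Psmb5 probe had 0.88, 0.99, 0.91, 1.68 and 1.91 in PBS-treated EVs, against 0.44, 0.61, 2.43 and 2.29 in control EVs. On that probe all slide 2 arrays exceeded all slide 1 arrays and the groups overlapped, with a difference of -0.17 ± 0.49 that did not pass, and the mean of both probes (0.26) did not pass either. Psmb7 (β2, trypsin-like) had -0.49, -0.47, -0.17, -0.41 and -0.46 in PBS-treated EVs, against -1.18, -1.19, -1.90 and -1.99 in control EVs. It rose by 1.16 ± 0.21, or 2.24-fold (limma, adjusted p = 0.00155), by 0.81 within slide 1 and 1.51 within slide 2. Psmb6 (β1, caspase-like) had 2.53, 2.58, 2.17, 2.34 and 2.34 in PBS-treated EVs, against 2.24, 2.34, 0.73 and 1.81 in control EVs. Here the groups overlapped and control replicate 3 stood lowest. The difference of 0.61 ± 0.32 did not pass (limma, adjusted p = 0.138), was 0.13 within slide 1 and 1.07 within slide 2, and without control replicate 3 it was 0.26 and did not pass either.

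**Figure D3:**
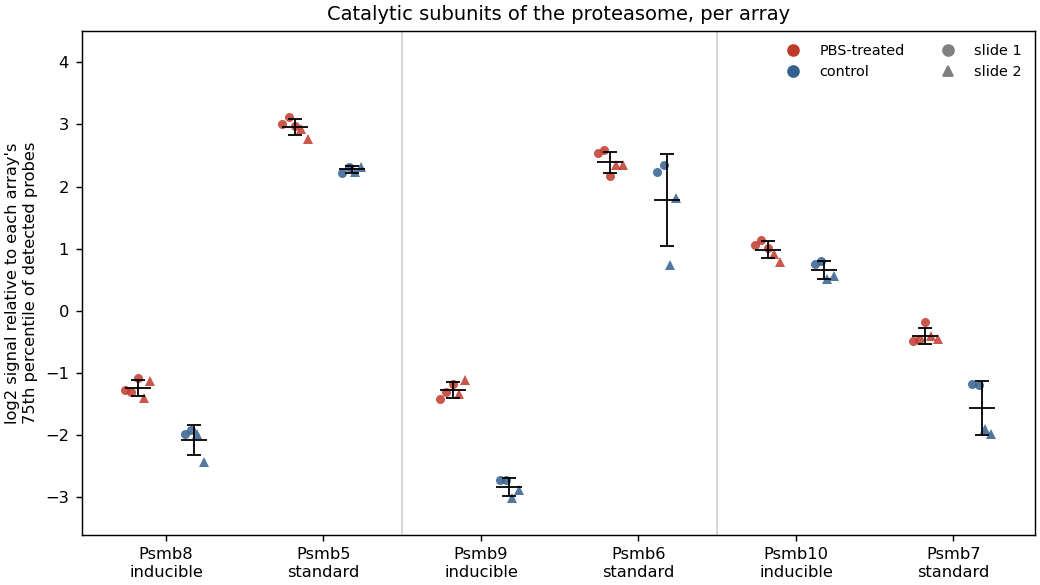
Signal of the 6 catalytic subunit genes on each array, on the log2 scale set by each array's 75th percentile, PBS-treated in red left of control in blue; circles are slide 1, triangles slide 2, and black bars the mean ± SD (n = 5 and 4). Levels of different genes come from different probes and cannot be compared; the groups lie apart in Psmb8, Psmb5, Psmb9 and Psmb7 and overlap in Psmb6 and Psmb10.

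Each inducible subunit replaces the standard one of the same ring position, so the 3 pairs were compared as the within-array log2 difference of inducible minus standard probe, which subtracting a constant from an array leaves unchanged but background correction and quantile scaling do not. Psmb9 minus Psmb6 was -3.95, -3.89, -3.34, -3.68 and -3.45 in PBS-treated EVs, against -4.96, -5.07, -3.75 and -4.69 in control EVs. The pair was higher in PBS-treated EVs by 0.95 (95% interval 0.19 to 1.61; exact permutation test, two-sided, p = 0.0238, 0.0357 adjusted over 3 pairs), with control replicate 3 inside the PBS-treated range. Psmb10 minus Psmb7 ran the opposite way, at 1.55, 1.62, 1.19, 1.33 and 1.24 in PBS-treated EVs, against 1.94, 1.995, 2.41 and 2.56 in control EVs. It was lower in every PBS-treated array, by -0.84 on average (95% interval -1.24 to -0.39; exact permutation p = 0.00794, the smallest that the splits of 9 arrays can give, 0.0238 adjusted). Psmb8 minus Psmb5 overlapped, at -4.29, -4.43, -4.06, -4.33 and -3.90 in PBS-treated EVs, against -4.20, -4.24, -4.22 and -4.75 in control EVs. That difference was 0.15 (95% interval -0.18 to 0.55; exact permutation p = 0.397, also 0.397 adjusted), and with the second Psmb5 probe, an alternative chosen after seeing the data, it was 1.01. Its sign turned with normexp (-0.42 with the percentile, -0.30 with quantile) and in the value table (-0.41), and it did not pass under any of its alternatives. The difference of Psmb9 minus Psmb6 was 1.28 within slide 1 and 0.65 within slide 2, that of Psmb10 minus Psmb7 was -0.52 and -1.20, and that of Psmb8 minus Psmb5 was -0.04 and 0.37, and neither slide holds enough arrays to pass. With background corrected by normexp, the difference of the Psmb9 pair was 0.25 (percentile) or 0.49 (quantile) and no longer passed.

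**Figure D4:**
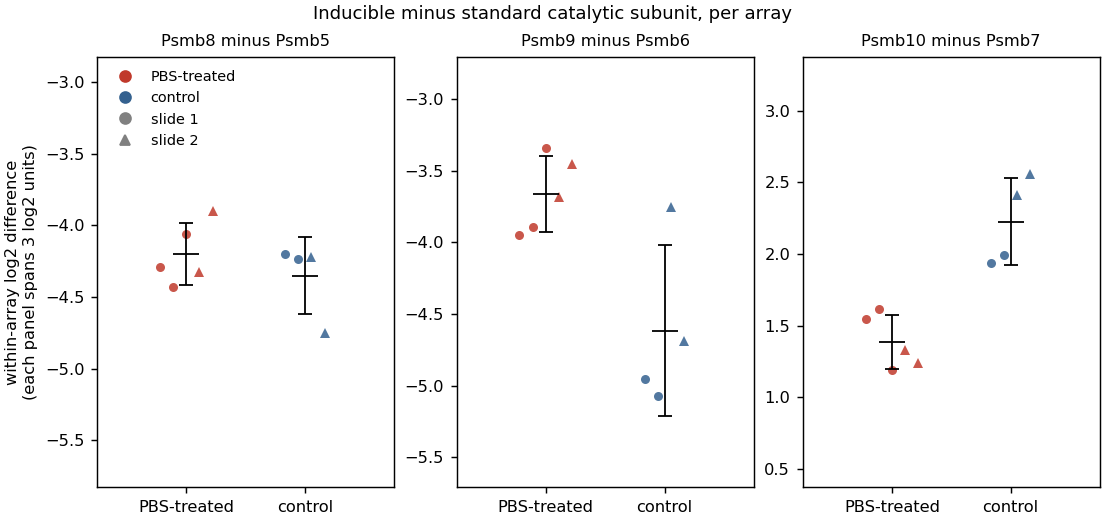
Within-array log2 difference of the inducible minus the standard subunit for the 3 catalytic positions, PBS-treated in red left of control in blue, circles for slide 1, triangles for slide 2 and black bars for mean ± SD (n = 5 and 4). Psmb10 minus Psmb7 separates the groups, with PBS-treated arrays lower, and Psmb9 minus Psmb6 separates all but control replicate 3.

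Of the 4 non-catalytic beta subunits 2 were higher (all genes: 31.6%). Psmb3 (β3) rose by 0.69 ± 0.11 and Psmb4 (β7) by 0.54 ± 0.17 (limma, adjusted p = 0.000995 and 0.0251). Neither passed with the 75th percentile taken over all probes (1.09 and 0.94). Psmb4 had 2.33, 2.45, 2.26, 2.38 and 1.94 in PBS-treated EVs, against 1.89, 2.03, 1.54 and 1.46 in control EVs, and PBS-treated replicate 5 lay inside the control range. Psmb1 (β6) had a difference of 0.19 ± 0.18, and -0.11 within slide 1. Psmb2 (β4) had -3.47, -3.52, -3.46, -3.57 and -3.38 in PBS-treated EVs, against -3.64, -3.56, -4.98 and -3.65 in control EVs. Its difference of 0.48 ± 0.29 did not pass and was 0.14 without control replicate 3, the lowest array, and 3 of 4 control arrays detected Psmb2.

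In the alpha ring 7 of 7 tested Psma genes were higher, without overlap between groups, with differences of 0.67 to 1.59. Among all genes tested 31.6% were higher, and 29.4% had every PBS-treated array above every control array. Psma2 (α2) had 1.77, 1.90, 1.75, 1.34 and 1.59 in PBS-treated EVs, against 0.51, 0.43, -0.42 and -0.21 in control EVs, a rise of 1.59 ± 0.23 or 3.01-fold (limma, adjusted p = 0.000488). Psma1 (α6) had 0.79, 0.70, 0.98, 0.69 and 0.77 in PBS-treated EVs, against -0.16, -0.65, -0.69 and -0.74 in control EVs. Control replicate 1 was the highest control for Psma1, and the rise was 1.35 ± 0.15 (limma, adjusted p = 0.000121). Psma6 (α1) had -0.95, -0.92, -0.75, -0.79 and -0.78 in PBS-treated EVs, against -1.71, -1.75, -2.11 and -2.20 in control EVs, a rise of 1.10 ± 0.14 (limma, adjusted p = 0.000247). For Psma2 and Psma6 the slide 2 controls were the lowest arrays. The smallest rise was that of Psma7 (α4) at 0.67 ± 0.14. Psma4 (α3), which closes the channel gate, rose by 0.82 ± 0.22 with PBS-treated replicate 3 at -0.80, just above the highest control at -0.81. Psma4 no longer passed with either normexp setting (0.55 and 0.65), in the value table (0.63) or on slide 1 alone (0.66). Nor did it pass with control replicates 1 and 2 only (0.79). A dimmer second Psma4 probe, detected on all 9 arrays, rose without overlap by 0.72 ± 0.10 (limma, adjusted p = 0.000442). On that probe PBS-treated replicate 3 was at -0.80, against -1.53 to -1.43 in control EVs. Psma5 and Psma7 no longer passed with the percentile over all probes (1.15 and 1.08).

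All 6 ATPases of the base were higher (all genes: 31.6%), without overlap (all genes: 29.4%), by 0.58 (Psmc1) to 1.33 (Psmc2). A dimmer second Psmc1 probe, detected on all 9 arrays, overlapped between groups. Its difference of 0.63 ± 0.29 did not pass (limma, adjusted p = 0.0955), whereas the second probes of Psmc2 and Psmc3 passed. Psmc2 (Rpt1) had 1.26, 1.26, 1.31, 1.18 and 0.89 in PBS-treated EVs, against 0.17, 0.19, -0.54 and -0.41 in control EVs, a rise of 1.33 ± 0.19 (limma, adjusted p = 0.000508). Psmc6 (Rpt4) had -1.07, -1.10, -1.10, -0.89 and -1.01 in PBS-treated EVs, against -2.05, -2.16, -2.17 and -2.34 in control EVs. Its arrays agreed closely within each group, and the rise was 1.14 ± 0.11 (limma, adjusted p = 5.23e-05). Psmc5 (Rpt6) had 0.04, 0.34, -0.64, 0.34 and 0.33 in PBS-treated EVs, against -0.89, -0.75, -1.17 and -1.08 in control EVs. PBS-treated replicate 3 came near the controls, and Psmc5 rose by 1.05 ± 0.23 (limma, adjusted p = 0.00437). Psmc5 did not pass on slide 1 alone (0.73), nor did Psmc1 and Psmc3 with the percentile over all probes (0.98 and 1.30) or Psmc1 with no filter on dim probes.

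Of the 14 Psmd genes 12 were higher (all genes: 31.6%), 10 of them at least 2-fold (all genes: 20.5%), with a median of 1.23. Psmd12 (Rpn5, of the lid) had 0.70, 0.90, 0.82, 0.56 and 0.66 in PBS-treated EVs, against -0.83, -0.75, -1.14 and -1.18 in control EVs, a rise of 1.71 ± 0.14 or 3.26-fold (limma, adjusted p = 2.45e-05). Psmd2 (Rpn1, the scaffold that receives ubiquitin shuttles) had 1.70, 1.73, 1.78, 1.45 and 1.53 in PBS-treated EVs, against 0.08, 0.18, -0.05 and -0.30 in control EVs, a rise of 1.66 ± 0.14 (limma, adjusted p = 2.74e-05). The gap between the groups exceeded 1 log2 unit in both genes, and within the slides they rose by 1.60 to 1.77. Psmd10 (gankyrin, a chaperone of the base) had -2.72, -2.73, -2.59, -2.43 and -2.56 in PBS-treated EVs, against -4.26, -4.25, -4.54 and -4.17 in control EVs, a rise of 1.70 ± 0.12 (limma, adjusted p = 1.56e-05). Of the control arrays 3 of 4 detected it, and with normexp and the percentile its difference was 0.45 and did not pass, as was so for Psmd5, also 0.45, another chaperone of the base. Psmd14 (Rpn11), the lid enzyme that removes ubiquitin, rose by 1.41 ± 0.18, and Psmd1 (Rpn2), the other large scaffold, by 1.38 ± 0.10. Psmd4 (Rpn10), a ubiquitin receptor, had the smallest called rise of the Psmd genes, 0.59 ± 0.11, and with Psmd3 (Rpn3) lost its call with the percentile over all probes (0.99 and 1.22). Psmd13 (Rpn9) differed by 0.12 ± 0.11 and Psmd9, a base chaperone, by 0.26 ± 0.15, and neither passed. A second Psmd9 probe, detected on the 5 PBS-treated arrays and on no control array, entered only through the PBS-treated group and was at least 2.2-fold higher there, with no test given.

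By particle, 13 of 17 core genes and 18 of 20 regulatory particle genes (Psmc and Psmd) were higher, with median differences of 0.75 and 1.12. The difference between these medians was not tested. The 20 include Psmd5, Psmd9 and Psmd10, which are assembly chaperones of the base and are counted again among the 7 below. The 7 assembly chaperones among the Psmd and Psmg genes had 3 higher (42.9%), with a median of 0.57. These counts stand beside 31.6% higher among all genes tested.

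The alternative caps were split by gene. Psme1 (PA28α) and Psme2 (PA28β), which interferon also induces and which form one ring, were both higher. Psme1 had 0.94, 0.99, 1.09, 1.02 and 1.06 in PBS-treated EVs, against 0.07, 0.12, -0.48 and 0.16 in control EVs, a rise of 1.05 ± 0.15 (limma, adjusted p = 0.000504). Psme2 had 2.003, 2.04, 1.84, 1.93 and 1.92 in PBS-treated EVs, against 1.14, 1.07, 0.74 and 0.74 in control EVs, a rise of 1.02 ± 0.13 (limma, adjusted p = 0.000237). In both genes every PBS-treated array exceeded every control array. Psme3 (PA28γ, the nuclear homologue) had -2.47, -3.21, -3.17, -2.59 and -2.66 in PBS-treated EVs, against -2.81, -3.43, -2.68 and -2.20 in control EVs. The groups were mixed and the difference was -0.04 ± 0.27 (limma, adjusted p = 0.912). Psme4 (PA200) had -3.75, -3.56, -3.99, -3.49 and -3.38 in PBS-treated EVs, against -5.11, -4.99, -5.48 and -6.15 in control EVs, the largest fitted difference of the 46 genes at 1.79 ± 0.25 (limma, adjusted p = 0.000439). This gene was dim, detected on only 2 of 4 control arrays, with 0.01 under normexp and the percentile, and its second probe differed by 0.21 ± 0.28.

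Psmf1 (PI31) had -4.77, -5.07, -4.76, -4.75 and -4.95 in PBS-treated EVs, against -4.84, -4.87, -5.44 and -6.19 in control EVs. Its difference of 0.48 ± 0.28 did not pass, was -0.01 within slide 1, 0.96 within slide 2 and 0.19 without control replicate 4, and only 2 of 4 control arrays detected it. Of the alpha ring chaperones, Psmg3 (PAC3) had -1.60, -1.45, -1.53, -1.61 and -1.51 in PBS-treated EVs, against -2.66, -2.70, -2.47 and -2.78 in control EVs. Psmg3 rose by 1.11 ± 0.11 without overlap (limma, adjusted p = 5.81e-05). Its partner Psmg4 (PAC4) differed by 0.32 ± 0.26 and Psmg1 (PAC1) by 0.57 ± 0.23, and neither passed. A dimmer second Psmg1 probe, detected on all 9 arrays, differed by 0.21 ± 0.32 and did not pass (limma, adjusted p = 0.598). PBS-treated replicate 3 was the lowest array on that probe (-3.75) and the highest on the brighter Psmg1 probe (0.68). Psmg2 (PAC2), the partner of Psmg1, had -4.15, -4.07, -3.80, -3.88 and -4.63 in PBS-treated EVs, against -3.53, -2.95, -3.61 and -3.95 in control EVs. It was the member with the most negative value, -0.59 ± 0.24 (limma, adjusted p = 0.0682), from a dim probe, and with spike-in scaling its sign turned to 0.72. With slide as a block Psmg1 passed as higher and Psmg2 as lower (adjusted p = 0.0151 and 0.0235; over all alternatives 2.31e-05 to 0.397 and 0.0027 to 0.824).

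**Figure D5:**
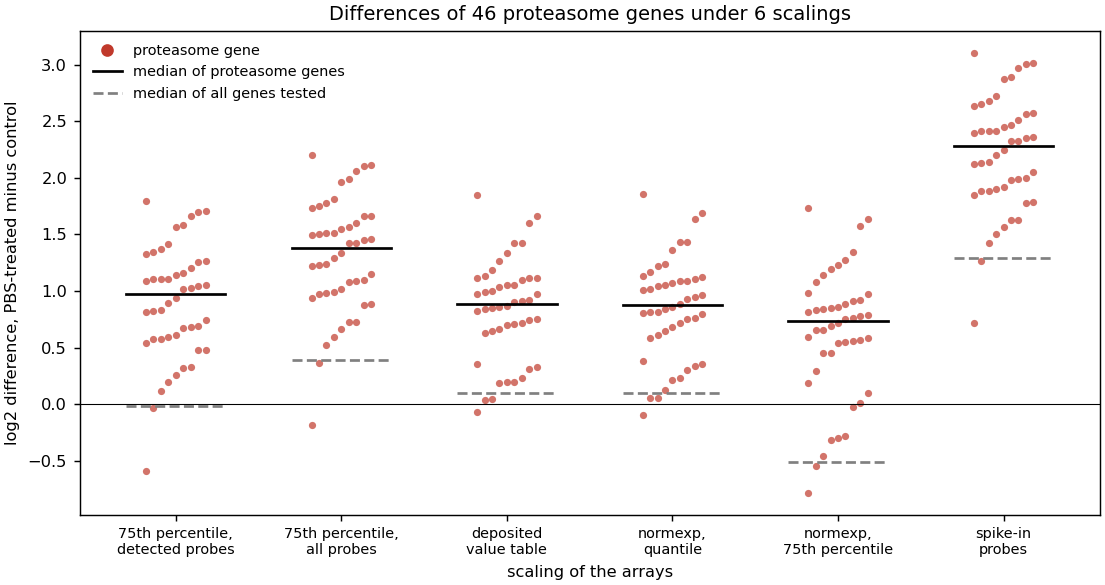
Log2 difference (PBS-treated minus control) of the 46 tested proteasome genes under 6 ways of scaling the arrays; each point is a gene, the black line their median and the dashed grey line the median of all genes tested. The black line lies above the grey one in each column, while the height of both moves with the scaling.

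The other genes of the pathway were taken from 5 lists. Of 12 proteasome partners and assembly factors 10 were higher and 1 lower, with a median of 1.16. The 10 and the median include Txnl1, which was detected on the 5 PBS-treated arrays and on no control array. It passed the filter only through the group where it was high, and its control level is only a bound. Zfand5, a ubiquitin-binding activator of the proteasome, rose by 1.65 ± 0.18, Uchl5, a deubiquitinase of the base, by 1.55 ± 0.21, and Ubr4, a large ubiquitin ligase, fell by 1.56 ± 0.20 (log2; limma, adjusted p = 0.000104, 0.000332 and 0.000308). Of 7 tested transcription factors and activators of proteasome genes 4 were higher and 1 lower. Nfe2l2 (Nrf2, which binds antioxidant response elements) rose by 3.21 ± 0.21, Nfyc (a CCAAT box factor) by 0.88 ± 0.12, and Ddi2, the protease that activates Nfe2l1, fell by 1.35 ± 0.13 (limma, adjusted p = 8.3e-06, 0.000329 and 5.89e-05). Nfe2l1 itself had -1.17 ± 0.49 and did not pass (limma, adjusted p = 0.0732). Its signal was -2.15 in control replicate 4, against -4.53 to -4.30 in the other controls and -5.27 to -4.43 in PBS-treated EVs. Only 2 of 4 control arrays detected Nfe2l2. Of 14 tested ubiquitin, shuttle and segregase genes 7 were higher and 3 lower, with a median of 0.83. Among them Ufd1l, a cofactor of the segregase Vcp, rose by 1.08 ± 0.11 and the shuttle Ubqln1, detected on 2 of 4 control arrays, by 1.43 ± 0.15 (limma, adjusted p = 8.07e-05 and 9.68e-05).

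Antigen presentation genes went both ways, with 4 of 10 tested higher, 4 lower and a median of 0.04. The class I heavy chain H2-K1 rose by 1.26 ± 0.14, while the chaperones Canx and Calr fell by 0.998 ± 0.102 and 1.23 ± 0.14 (limma, adjusted p = 0.000136, 7.77e-05 and 0.00013). Tap1, the peptide transporter gene beside Psmb9, was detected on no array. Of 12 tested interferon signalling genes 7 were higher and 1 lower, with a median of 0.97. The kinase Jak1 rose by 3.21 ± 0.21 and the transcription factor Irf1 by 1.71 ± 0.17, and the receptor chain Ifnar1 fell by 3.54 ± 0.27 (limma, adjusted p = 9.93e-06, 5.89e-05 and 1.86e-05). Ifng, Ifnb1 and Irf8 were detected on no array. The counts of all the lists are to be read beside the 31.6% and 20.7% of all genes given above.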

How the data were processed

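Each sample was hybridised to 1 single-colour Agilent array. Spots were quantified by the authors in Agilent Feature Extraction, version 10.7.3.1 per the file headers. The deposited scanner files hold the background-corrected intensity of each spot, its mean intensity, the intensity of its surroundings and marks for dim, saturated and non-uniform spots. Log2 values of the same arrays stand in a deposited value table, normalized by steps not given in the sources used here, which ranks probes as the mean signal does (median 5.97 on every array); its centring is not stated, and it served as an alternative.

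Control and non-uniform spots were dropped and spots of a probe were averaged, giving 55681 probes. No spot was saturated. From log2 of the processed signal each array's 75th percentile over the 8422 probes detected (marked well above background) on all 9 arrays was subtracted. Each gene took its probe of highest mean signal and was tested if at least 4 arrays detected that probe (14284 genes). Gene names are those of the array design. The 2-group fit used limma 3.58.1 in R 4.3.3 (lmFit, eBayes, two-sided, all 9 arrays), with Benjamini-Hochberg adjustment over all genes tested and a threshold of 0.05. Subunit pairs and counts per array were compared with exact permutation tests over all splits of the arrays, whose smallest p is 0.00794. The fits were tested on simulated data. A probe that no array of a group detected has only a bound there, set by each array's lowest detected signal, and is written as "at least". Second probes were tested in 1 fit over 17765 probes.

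The proteasome genes, the lists and the rule for named genes (catalytic subunits, Psme genes, up to 3 largest called changes per letter in each direction, untested members, and up to 3 genes of smallest p per list) were chosen with earlier results of these data known; the other members and genes were named after seeing their values. Alternatives were other scalings, normexp background correction (offset 50), other filters and probe rules, slide and replicate blocks, each slide alone, array weights, a robust trend, the methods' t-test and leaving out each array. The number of arrays limits the precision. No columns of other samples were present. Some listed genes are not reported here.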

Additional observations from a re-analysis of the deposited data

Results flagged for a closer look

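For the 46 tested proteasome genes and the 3 subunit pairs, the highest and the lowest array of each group were set against the rest of the group. In 6 of 98 groups of values, the gap to the nearest array took more of the group's range than Dixon's 95% critical value, and chance flags about 1 in 20 groups. Psmb7 in PBS-treated replicate 3, the highest of its group, was at -0.17 against -0.49 to -0.41 in the other 4 arrays (gap over range 0.756). Psma1 in control replicate 1, the highest control, was at -0.16 against -0.74 to -0.65 (0.83). Psmb2 in control replicate 3, where its probe was lowest, was at -4.98 against -3.65 to -3.56 (0.935). Psme1 was lowest in the same array, at -0.48 against 0.07 to 0.16 (0.86). Psmb8 in control replicate 4 was at -2.43 against -1.98 to -1.91 (0.869), and Psmb8 minus Psmb5 in that array was at -4.75 against -4.24 to -4.20 (0.933). Of the control flags 4 lie on slide 2.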

How the results depend on the processing

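Among 46 tested members, 21 of the 35 called ones were called higher under every alternative in which they were tested. Of 1144 member values under alternatives, 1086 kept their side of the threshold, 28 lost a call, 28 gained one and 2 turned direction with a call. A change of sign without a call in either fit counts among the 1086. Examples under normexp with the percentile are Psmd9 (0.26 to -0.46) and Psmf1 (0.48 to -0.55). The count of members higher stayed within 1.5 times of 35 in all, from 26 (75th percentile over all probes) to 46 (spike-in scaling). Spike-in scaling, relative to 7 added RNAs, moved the median of all genes from -0.02 to 1.29 and of the members to 2.29, and turned Psme3 to 1.27 and Psmg2 to 0.72, both then called higher. The percentile over all probes moved the median of all genes to 0.39, and normexp with the percentile to -0.51. One member, Psmg2, was called lower (1 in place of 0) with that normexp setting, slide as a block, slide 1 alone, array weights and, chosen after seeing the data, control replicates 1 and 2 only; without 1 array at a time the count was 0 to 1, 1 without control replicate 4. Psmb4 lost its call without PBS-treated replicate 1, 2 or 4 or control replicate 3 or 4 (differences of 0.45 to 0.52), and Psmb10 gained one without PBS-treated replicate 5 (0.37). Over all genes, higher calls numbered 8965 with spike-in scaling, 1887 with normexp and the percentile and 2363 with signal on all 9 arrays required. Lower calls numbered 1351 (percentile over all probes), 684 (spike-in), 4652 (normexp with the percentile), 1896 (normexp, quantile), 1887 (value table), 5269 (no filter), 4891 (slide block) and 4479 (slide 1 alone). The cause of these shifts was not tested.

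For the pairs, Psmb9 minus Psmb6 no longer passed with normexp and the percentile (0.25), normexp and quantile (0.49), the value table (0.38), slide 1 alone (1.28) or slide 2 alone (0.65), nor Psmb10 minus Psmb7 on slide 1 (-0.52) or 2 (-1.20). Without 1 array at a time the first was 0.80 to 1.24 and the second -0.94 to -0.73, and both passed only without control replicate 3. For Psmb10 minus Psmb7 the groups did not overlap in any of these sets, so its unadjusted p was the smallest that the remaining splits allow; for Psmb9 minus Psmb6 the cause was not tested. Psmb8 minus Psmb5, which never passed, was -0.42 (normexp, percentile), -0.30 (normexp, quantile) and -0.41 (value table), and without 1 array at a time 0.02 to 0.21, and the difference in members well above background was 1 to 2.67 per array.

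Same-numbered arrays deviated together for numbers 1, 2 and 4, which share a slide (r = 0.70, 0.73 and 0.74). Number 3, on different slides, had r = -0.54. Slide was not removed from these values, so they cannot tell whether the numbers pair the samples. The replicate block, in which PBS-treated replicate 5 has no partner and drops out, gave 35 members higher, 0 lower and no changed call, with 4082 genes higher and 3350 lower.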
